A study of Oncorhynchus mykiss with 20 samples.

Results

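Lysosomal genes of the intestine of rainbow trout (Oncorhynchus mykiss) are described here: ctns (cystinosin), ctsh (cathepsin H), ctsa (cathepsin A) and igf2r (the large mannose-6-phosphate receptor). They are 4 of 61670 features, all 4 were among the 32166 features that passed the filter on low counts, and they were chosen by symbol because their messenger RNA was called higher at the later age in an earlier analysis of the same libraries. Differences between ages are therefore given for them as a description, with no test, while differences between strains were not used to choose them and are tested. Each of the genes was represented by 1 annotated gene and 1 transcript: ctns by gene 110524220, ctsh by 110495904, ctsa by 110528562 and igf2r by 110522220. Trout carry near-identical copies of many genes, and reads that fit several copies are divided between them, so other copies of these genes may hold reads that are not counted here.

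Messenger RNA was sequenced from whole intestines of female fry of 2 trout strains, with 5 libraries in each of 4 groups: Select at 65 days post hatch (dph), Commercial at 65 dph, Select at 20 dph and Commercial at 20 dph. Select is the strain ARS-KO, selected for growth and immune performance per the title of the series, and Commercial is a widely used farmed strain set beside it. All fish received a commercial starter diet in spring water at 15 °C. The strains shared rearing as eggs but were moved to separate raceways at hatching, so strain and raceway cannot be told apart, and whether a library holds 1 fish or a pool is not given in the sources used here. The p-values measure the spread between these labelled biological replicates, and in whole intestine fewer cells of a type and less RNA per cell cannot be told apart.

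Lysosomes are the acidic compartments in which cells break down proteins, glycans and lipids taken up from outside or delivered from within. Most of their soluble enzymes are given a mannose-6-phosphate tag in the Golgi, and receptors for this tag, of which the product of igf2r is one, carry them to endosomes. The products of ctsh and ctsa then act inside the lysosome, as a cysteine protease with strong aminopeptidase activity and as a serine carboxypeptidase that also shields β-galactosidase and neuraminidase from breakdown. The product of ctns sits in the lysosomal membrane and exports cystine, the oxidised cysteine dimer left when proteins are digested; its loss causes cystinosis in humans. In zebrafish, specialised lysosome-rich enterocytes of the posterior gut take up protein from the lumen and digest it inside the cell.

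Library totals ran from 7314588 to 13682738 expected counts. Ages lay apart on the first principal component (25.5% of variance). On the second (8.8%), Commercial 65 dph replicate 2 (-74.29) lay far from the other Commercial 65 dph libraries (65.54 to 74.91), and Select 65 dph replicate 5 (-76.72) lay below the other Select 65 dph libraries (-27.26 to -10.68). The list of smooth muscle and fibroblast markers matched only col1a1, col1a1b and pdgfra, and no smooth muscle gene. The summed level of these 3 fibroblast markers was 2157 CPM (counts per 1000000 counts of the library) in Select 65 dph replicate 5, against 889.6 to 1912 CPM in the other libraries of its group. It was 1935 CPM in Commercial 65 dph replicate 2, against 635 to 912 CPM in the others there. The summed level of 4 matched liver markers was 10820.4 CPM in Select 20 dph replicate 1, against 11.1 to 36.8 CPM in the other Select 20 dph libraries. Enterocyte markers, 8 of which matched, summed to between 9709 and 18035 CPM over the 20 libraries and were lowest of their own group in each of these 3 libraries; cdx4 alone among them had no counts in either 65 dph group. Calls with age and between strains given below are also given without these 3 libraries where that changed the call of a named gene or the count of a list.

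Per unit of transcript length, ctsh was the most abundant of the genes in every group. On the deposited scale of TPM (transcripts per 1000000, scaled for length and depth), ctsh averaged 1763 ± 349 TPM in Select and 1637 ± 260.1 TPM in Commercial at 65 dph (SD, n = 5 each). At 20 dph it averaged 604 ± 199 TPM in Select and 416 ± 125 TPM in Commercial. Among 6926 genes with a symbol, ctsh ranked 33 by its mean TPM over all libraries. Among the 68 lysosomal genes matched by symbol it ranked 2, behind the cathepsin B gene ctsbb (3162 TPM).

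The carboxypeptidase gene ctsa came next, with 577 ± 108 TPM in Select and 515 ± 62.2 TPM in Commercial at 65 dph. At 20 dph it had 257 ± 80.3 TPM in Select and 187 ± 43.3 TPM in Commercial. The receptor gene igf2r lay more than an order of magnitude lower, with group means of 29.2 TPM in Select and 24.0 TPM in Commercial at 65 dph, and 11.4 TPM in Select and 10.4 TPM in Commercial at 20 dph. The cystine exporter ctns was the scarcest, with 11.7 TPM in Select and 11.4 TPM in Commercial at 65 dph, and 1.62 TPM in Select and 1.86 TPM in Commercial at 20 dph. In CPM, which are scaled differently between libraries, the age differences of all 4 genes were smaller than in TPM, and they are given below. The order ctsh, ctsa, igf2r, ctns was that of the mean TPM in all 4 groups. Within groups the ranges of neighbours in this order did not overlap, except at 20 dph in Select, where ctsh ran from 316 to 842 TPM and ctsa from 147 to 338 TPM.

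**Figure D1:**
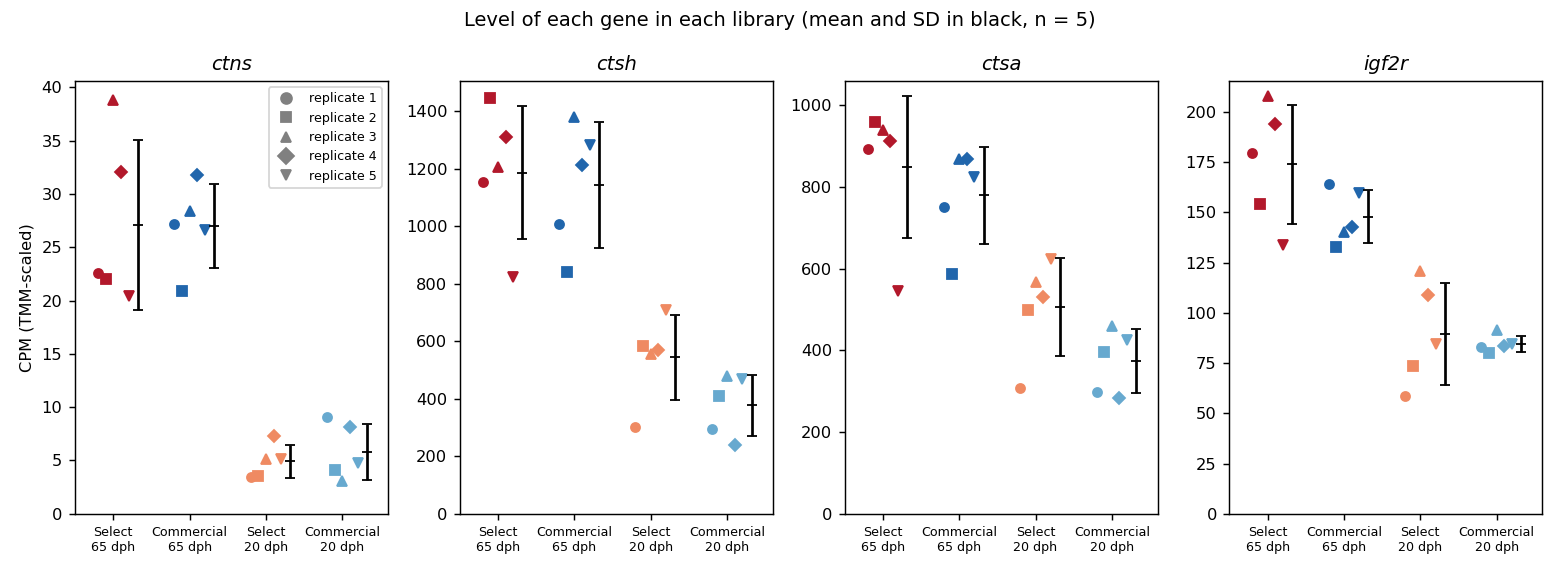
Level of each gene in every library in CPM scaled by TMM (vertical axes, linear and starting at 0), by group; marker shapes give the replicate, and black bars the mean and SD of 5 libraries. The 65 dph libraries lie above all 20 dph libraries of their strain in every panel except for ctsa in Select, where replicate 5 (544 CPM) lies among the 20 dph libraries.

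The receptor of tagged enzymes, igf2r, was higher at 65 dph in both strains. It measured 179.6, 154, 208, 194 and 134 CPM in the Select 65 dph libraries, against 58.8, 73.6, 121, 109 and 84.6 CPM in the Select 20 dph libraries. In Commercial it measured 164, 133, 140.3, 143 and 159.8 CPM at 65 dph, against 83.0, 80.2, 91.4, 83.3 and 84.4 CPM at 20 dph. Every 65 dph library lay above every 20 dph library in both strains, although the lowest Select library at 65 dph stood close to the highest at 20 dph. The log2 fold change, 65 over 20 dph, was 0.96 ± 0.16 in Select and 0.81 ± 0.16 in Commercial (SE), which is 1.94-fold and 1.75-fold. The Commercial libraries lay close together, with coefficients of variation of 8.97% at 65 dph and 4.96% at 20 dph, while the Select libraries spread more widely, at 17.1% and 28.6%; this difference in spread was not tested.

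Among the digestive enzymes, ctsh measured 1153, 1445, 1207, 1309 and 822 CPM in the Select 65 dph libraries, against 302, 585, 556, 569 and 708 CPM in the Select 20 dph libraries. In Commercial it measured 1008, 840.2, 1381, 1213 and 1284 CPM at 65 dph, against 294, 408, 478, 240.4 and 468 CPM at 20 dph. The ages did not overlap in either strain, and the lowest 65 dph libraries were Select replicate 5 and Commercial replicate 2. With age, ctsh had a log2 fold change of 1.13 ± 0.23 in Select and 1.6 ± 0.23 in Commercial, or 2.18-fold and 3.03-fold.

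The other enzyme gene, ctsa, measured 892, 958, 939, 911 and 544 CPM in the Select 65 dph libraries, against 307, 499, 567, 529.5 and 623 CPM in the Select 20 dph libraries. In Commercial it measured 751, 586, 867, 868 and 824 CPM at 65 dph, against 299, 397, 459, 283 and 426 CPM at 20 dph. The Commercial ages did not overlap, whereas in Select 4 of the 65 dph libraries lay together above all 20 dph libraries and replicate 5 lay among them. For ctsa the log2 fold change with age was 0.75 ± 0.2 in Select and 1.06 ± 0.2 in Commercial, or 1.68-fold and 2.09-fold.

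The cystine exporter ctns had the widest difference between ages. It measured 22.6, 22, 38.8, 32.1 and 20.4 CPM in the Select 65 dph libraries, against 3.44, 3.51, 5.12, 7.31 and 5.16 CPM in the Select 20 dph libraries. In Commercial it measured 27.2, 20.9, 28.4, 31.8 and 26.6 CPM at 65 dph, against 9.04, 4.06, 3.05, 8.11 and 4.79 CPM at 20 dph. The ages were far apart in both strains, and the strains lay on top of each other at each age. Its log2 fold change with age was 2.46 ± 0.29 in Select and 2.21 ± 0.28 in Commercial, or 5.51-fold and 4.62-fold. Its values at 20 dph rested on 24 to 101 expected counts per library, against 2044 to 5761 for ctsh at that age, so counting error weighs more on ctns than on the others.

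With age, 4 of 4 genes were called higher in each strain at an adjusted p under 0.05, beside 16.4% of all tested features called higher in Select and 14.5% in Commercial. In 3 of 4 genes in Select and 4 of 4 in Commercial the libraries of the ages did not overlap, beside 11.6% and 10.3% of all features not overlapping in that direction. The genes were chosen on these contrasts, so nothing is read from either count. The median log2 fold change of the genes was 1.04 in Select and 1.33 in Commercial, beside medians of 0.0741 and 0.0523 over all tested features. Closest to the threshold was ctsa in Select; the 3 libraries that stood apart were left out in an alternative chosen after seeing the data, and ctsa then had a log2 fold change of 0.73, ctsh 1.07, igf2r 0.91 and ctns 2.44.

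The age difference of ctsh exceeded that of ctsa in both strains, which appears as a change in their proportion. The ratio of ctsh to ctsa in TPM was 3.07 ± 0.261 in Select 65 dph libraries and 2.35 ± 0.198 in Select 20 dph libraries (SD, n = 5 each), with ranges of 2.77 to 3.32 and 2.13 to 2.58. In Commercial it was 3.17 ± 0.227 at 65 dph and 2.19 ± 0.22 at 20 dph, with ranges of 2.89 to 3.44 and 1.83 to 2.42. The ratio was thus higher at 65 dph in every library of either strain, including the 3 libraries that stood apart, and strains overlapped at each age. This too is a description, since both age effects entered the choice of the genes.

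**Figure D2:**
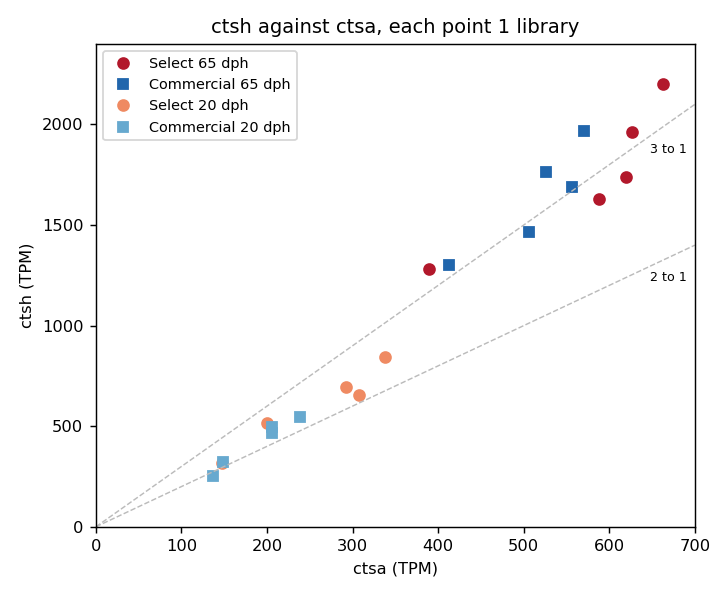
TPM of ctsh (vertical axis) against TPM of ctsa (horizontal axis), each point 1 library, with guide lines at ratios of 3 to 1 and 2 to 1. Ratios run from 2.77 to 3.32 at 65 dph and from 2.13 to 2.58 at 20 dph in Select, and from 2.89 to 3.44 at 65 dph and from 1.83 to 2.42 at 20 dph in Commercial.

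Between strains, none of the 4 genes was called at either age or in the average over both ages by edgeR's quasi-likelihood test, and DESeq2 also called 0 of 4. An unadjusted p under 0.05 (edgeR) was reached by 0 of 4 at 65 dph, by 0 of 4 in the average and by 2 of 4 at 20 dph. Of all 32166 tested features, 2000, 3549 and 3316 reached it in these contrasts, so nothing is read from the counts. The 2 genes, ctsh and ctsa, lay on the same side of their group mean in 19 of 20 libraries and are not separate observations. At 20 dph both enzyme genes leaned towards higher levels in Select. The ctsh libraries of 4 of 5 Select replicates (556 to 708 CPM) lay above the highest Commercial library (478 CPM), and Select replicate 1 (302 CPM) lay at the low end of the Commercial range. The log2 fold change, Select over Commercial, was 0.53 ± 0.23 with an approximate 95% interval of 0.08 to 0.97, an unadjusted p of 0.0321 and an adjusted p of 0.417 (edgeR). For ctsa, 4 of 5 Select libraries likewise exceeded the highest Commercial library, with a log2 fold change of 0.44 ± 0.2, an interval of 0.05 to 0.82, an unadjusted p of 0.0385 and an adjusted p of 0.444 (edgeR). Without the 3 libraries that stood apart, of which Select 20 dph replicate 1 enters this contrast, the values were 0.68 for ctsh (adjusted p = 0.137) and 0.58 for ctsa (adjusted p = 0.0935), still short of the threshold. Over the alternatives the adjusted p ran from 0.137 to 0.658 for ctsh and from 0.0935 to 0.676 for ctsa.

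For ctns and igf2r at 20 dph the strains lay closer. The log2 fold change was -0.24 ± 0.29 for ctns (interval -0.8 to 0.32, edgeR adjusted p = 0.872) and 0.08 ± 0.16 for igf2r (interval -0.23 to 0.4, edgeR adjusted p = 0.935). Of all tested features 51, or 0.159%, were called between strains at 20 dph, and the median log2 fold change was 0.26 over the 4 genes, against -0.00478 over all features. Among the cell type markers at this age the T cell gene cd3e was called higher in Select (log2 fold change 0.98, adjusted p = 0.0284), and the 4 T cell markers summed to 11.1 to 18.2 CPM in Select and 8.34 to 9.38 CPM in Commercial. The part of these cells in the levels of ctsh and ctsa was not tested.

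At 65 dph the strains could not be separated in any of the 4 genes. The log2 fold change was 0.01 ± 0.27 for ctns (interval -0.51 to 0.53), 0.05 ± 0.23 for ctsh (-0.39 to 0.49), 0.12 ± 0.2 for ctsa (-0.26 to 0.51) and 0.23 ± 0.16 for igf2r (-0.08 to 0.55), with edgeR adjusted p between 0.901 and 0.999. These intervals leave room for strain differences of up to about 0.5 in either direction for ctns, so a miss of the threshold does not show equal levels. Of all tested features 0, or 0%, were called by edgeR at this age, beside 2000 with an unadjusted p under 0.05 and 121 called by DESeq2; without Commercial 65 dph replicate 2, edgeR called 125 features and again 0 of these genes. For ctsa, 4 of 5 Select libraries (892 to 958 CPM) lay above the highest Commercial library (868 CPM), while Select replicate 5 (544 CPM) lay below the lowest (586 CPM).

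Averaged over both ages, a contrast that does not depend on the age effects, the log2 fold change was 0.29 ± 0.16 for ctsh (interval -0.02 to 0.6, edgeR adjusted p = 0.549) and 0.28 ± 0.14 for ctsa (0.01 to 0.55, adjusted p = 0.476). It was 0.16 ± 0.11 for igf2r (adjusted p = 0.688) and -0.12 ± 0.19 for ctns (adjusted p = 0.911). The approximate intervals use a normal quantile and are somewhat narrow: that of ctsa excluded 0 although its unadjusted p was 0.0577 (edgeR). Of all tested features, 136 or 0.423% were called in this contrast. The difference between the age effects, Select minus Commercial, was -0.47 ± 0.32 for ctsh (interval -1.1 to 0.15) and -0.31 ± 0.28 for ctsa (-0.86 to 0.23). It was 0.15 ± 0.23 for igf2r (-0.29 to 0.59) and 0.25 ± 0.39 for ctns (-0.51 to 1.02), with edgeR adjusted p from 0.908 to 0.962. The genes were chosen on age effects that enter this difference, 0% of all features were called in it by edgeR beside 1781 with an unadjusted p under 0.05, and DESeq2 called 66.

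**Figure D3:**
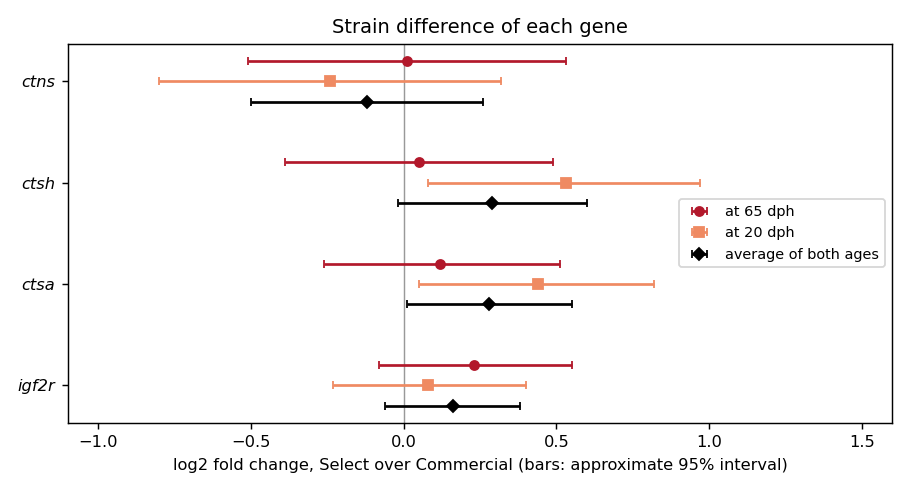
Log2 fold change of each gene, Select over Commercial (horizontal axis), at 65 dph, at 20 dph and averaged over both ages, with approximate 95% intervals. At 20 dph the intervals of ctsh (0.08 to 0.97) and ctsa (0.05 to 0.82) lie above 0 before adjustment, and all intervals at 65 dph span 0. In the average that of ctsa (0.01 to 0.55) lies just above 0, with an unadjusted p of 0.0577 (edgeR).

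Within a group, ctsh and ctsa moved together from library to library. They lay on the same side of their group mean in 19 of 20 libraries, and their deviations from the group means differed by a root mean square of 0.108 on the log2 CPM scale. For the other pairs of genes the same side was shared in 10 to 13 of 20 libraries, and the root mean square difference was 0.233 to 0.546. Pairs outside the 4 genes were not compared in this way, so closeness particular to ctsh and ctsa is not shown. Over whole profiles ctsh ranked 16 in likeness to ctsa among 5297 tested genes with a symbol. The genes of 1 library share its depth and composition, which enter these counts. All 4 genes lay below their group mean in Select 65 dph replicate 5, Commercial 65 dph replicate 2 and Select 20 dph replicate 1. In the same 3 libraries enterocyte markers were lowest of their group and fibroblast markers were highest, at 1126 CPM in Select 20 dph replicate 1. Liver markers were highest of their group in that 20 dph library too. The part of these markers in the levels was not tested. All 4 lay above their group mean in Select 65 dph replicates 3 and 4 and in Select 20 dph replicates 3 and 4.

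The exporter ctns did not follow the enzymes in Commercial 20 dph libraries. It stood 0.73 above its group mean (log2 CPM) in replicate 1 and 0.58 above in replicate 4, which were the libraries with low ctsh and ctsa, and it stood at -0.77 in replicate 3, where ctsh and ctsa were high. These ctns values rest on the small counts given above.

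**Figure D4:**
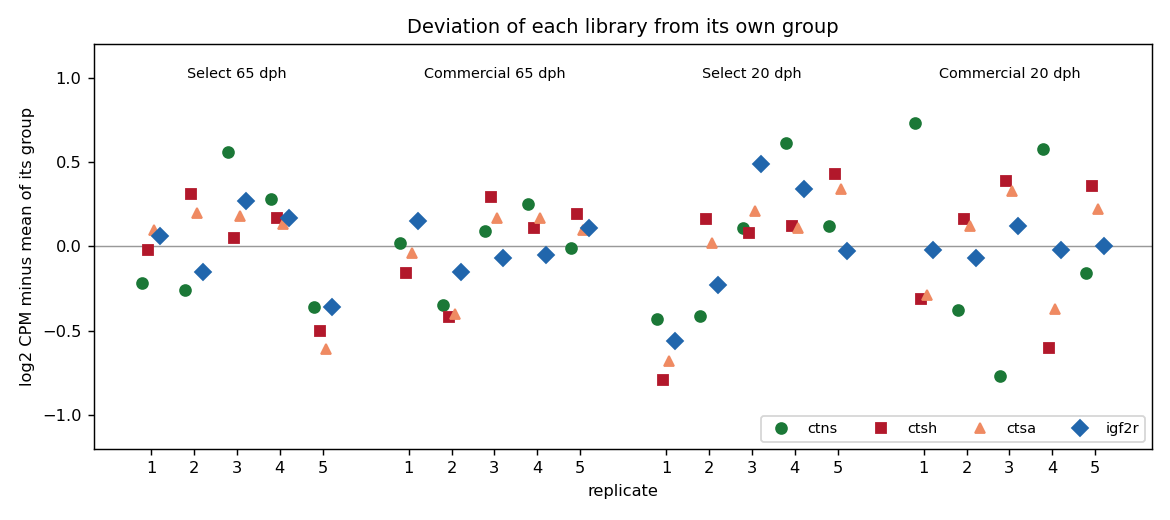
Deviation of each library from the mean of its own group in log2 CPM (vertical axis), by group and replicate, for the 4 genes. The symbols of ctsh and ctsa lie together in nearly every library, and all 4 genes lie below 0 in Select 65 dph replicate 5, Commercial 65 dph replicate 2 and Select 20 dph replicate 1.

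Other lysosomal genes were called in both directions with age, more of them higher than lower at 65 dph. Of 64 other lysosomal genes matched by symbol, 62 were tested: 10 rose and 5 fell in Select, and 19 rose and 3 fell in Commercial. Of all features, 34.3% were called in either direction in Select and 30.1% in Commercial. Higher at 65 dph were 16.4% of all features in Select and 14.5% in Commercial, and lower were 17.9% and 15.6%. The called share in either direction was 24.2% in Select, below the share of all features, and 35.5% in Commercial, near it. In Select the 10 of 62 that rose were near the 16.4% of all features called higher. In Commercial the 19 of 62 that rose lay above the 14.5% of all features. The 5 and the 3 that fell lay below the shares of all features called lower. These shares were not tested. The median log2 fold change of the 62 lysosomal genes was 0.17 in Select and 0.33 in Commercial. Without the 3 libraries that stood apart 11 rose and 6 fell in Select, and 23 rose and 3 fell in Commercial. That was 27.4% and 41.9% of the list, beside 30.8% and 29.7% of all features tested with and without them. With all libraries 11 genes were called in both strains, 9 of them higher and 2 lower at 65 dph, and 36 were called in neither. Without the 3 libraries these counts were 11, 10, 1 and 30. The share of all features called in both strains is not given here, so nothing is read from these counts.

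Among the other lysosomal proteases, 2 of 7 rose in Select and 3 of 7 in Commercial, and none fell. That was 28.6% and 42.9% of the list, beside 16.4% and 14.5% of all features called higher. Without the 3 libraries that stood apart 6 of 7 rose in Commercial. The carboxypeptidase gene ctsz rose by a log2 fold change of 0.79 in Select (adjusted p = 0.00641) and 1.02 in Commercial (adjusted p = 0.00113), with 119 ± 13.4 CPM against 68.7 ± 19.1 CPM in Select and 133 ± 20.9 CPM against 65.9 ± 18.6 CPM in Commercial, 65 dph against 20 dph. The tripeptidyl peptidase gene tpp1 rose by 0.47 in Select (adjusted p = 0.0457) and 0.78 in Commercial (adjusted p = 0.00265). The cathepsin C gene ctsc, named after its values were seen, was the other one in Commercial, at 0.73 (adjusted p = 0.0479), and had 0.49 in Select (adjusted p = 0.173). Chosen after their values were seen because they are the main endopeptidases of the compartment, the cathepsin B gene ctsbb had 0.34 in Select (adjusted p = 0.28) and 0.56 in Commercial (adjusted p = 0.0819), and the cathepsin L gene ctsla had -0.04 (adjusted p = 0.819) and 0.19 (adjusted p = 0.156). Without the 3 libraries that stood apart both were called in Commercial, at 0.69 for ctsbb (adjusted p = 0.0111) and 0.28 for ctsla (adjusted p = 0.0477).

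Of 19 tested glycosidases, lipases and other hydrolases, 5 rose and 1 fell in Select, and 10 rose and 2 fell in Commercial. That was 31.6% and 63.2% of the list, beside 34.3% and 30.1% of all features called in either direction. Without the 3 libraries that stood apart the counts of genes that rose and fell were 4 and 0 in Select and 8 and 2 in Commercial. The gene gm2a, which encodes the activator protein for ganglioside breakdown, rose by 1.01 in Select (adjusted p = 0.000162) and 1.46 in Commercial (adjusted p = 5.09e-06). The phospholipase B-like gene plbd1 rose by 0.89 (adjusted p = 0.000333) and 0.85 (adjusted p = 0.000556), and the α-galactosidase gene gla by 0.7 (adjusted p = 0.0167) and 1.19 (adjusted p = 0.000471), in Select and in Commercial. For gla the call in Select was lost without the 3 libraries that stood apart (0.52, adjusted p = 0.0871). The aspartylglucosaminidase gene aga and the related phospholipase B-like gene plbd2 were the others called in both strains. The gene of γ-glutamyl hydrolase, ggh, named after its values were seen, fell by 0.67 in Commercial (adjusted p = 0.0387). The phospholipase gene pla2g15 fell in both strains, by 2.54 in Select (adjusted p = 0.0457) and 4.39 in Commercial (adjusted p = 0.00311), but its 20 dph libraries ran from 4.88 to 49.6 CPM in Select and from 4.91 to 169 CPM in Commercial. The highest of these were Select replicate 1 and Commercial replicate 5, the libraries with the most liver marker RNA in their groups (10820.4 and 231 CPM), a link that was not tested. Without the 3 libraries that stood apart, of which Select replicate 1 is one, pla2g15 was no longer called in Select (-1.65, adjusted p = 0.232).

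Of 14 tested membrane proteins and transporters, 2 rose in Select and 3 in Commercial, and none fell. That was 14.3% and 21.4% of the list, beside 16.4% and 14.5% of all features called higher. Without the 3 libraries that stood apart 3 and 5 rose. The tetraspanin gene cd63 rose by 1.07 in Select (adjusted p = 0.000324) and 1.25 in Commercial (adjusted p = 9.34e-05), and tpcn2, an ion channel gene of the lysosomal membrane, by 0.55 (adjusted p = 0.0226) and 0.72 (adjusted p = 0.00483). The lysosomal membrane glycoprotein gene lamp2, named after its values were seen, rose in Commercial by 0.59 (adjusted p = 0.0211) and had 0.45 in Select (adjusted p = 0.066), or 0.42 and a call there without the 3 libraries (adjusted p = 0.0367). The sialic acid exporter gene slc17a5, another solute exporter of the lysosome, was picked after its values were seen: it had -0.15 in Select (adjusted p = 0.541) and -0.1 in Commercial (adjusted p = 0.733), beside 2.46 and 2.21 for ctns. The difference between these exporters was not tested. The transporter gene slc15a4 of the same list, named after its values were seen, had 0.49 in Commercial (edgeR adjusted p = 0.0677). Without the 3 libraries it was called there, at 0.59 (edgeR adjusted p = 0.0323), so slc17a5 does not stand for all transporters of the list.

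The tagging and sorting machinery around igf2r gave 8 tested genes. Their called share with age was 25.0% in Select and 12.5% in Commercial, beside 34.3% and 30.1% of all tested features. With so few genes, nothing is read from these shares. Of 8 tested, 1 rose and 1 fell in Select, and 1 rose and none fell in Commercial, with median log2 fold changes of -0.08 and 0.02. Named after their values were seen, these were the sorting receptor gene sort1a, up by 1.11 in Select (adjusted p = 0.0477) and at 1.12 in Commercial (adjusted p = 0.0507), the clathrin light chain gene clta, at -0.48 in Select (adjusted p = 0.00741), and the retromer gene vps26a, up by 0.49 in Commercial (adjusted p = 0.00382). DESeq2 called sort1a in both strains, clta and the tagging gene gnptg in Select, and vps26a in Commercial. The small mannose-6-phosphate receptor gene m6pr was chosen after its values were seen because its product, like that of igf2r, is a receptor for the tag. It averaged 49.9 ± 5.79 CPM at 65 dph against 47.1 ± 6.03 CPM at 20 dph in Select. In Commercial it averaged 51.5 ± 3.63 CPM at 65 dph against 44.3 ± 6.73 CPM at 20 dph. Its log2 fold changes were 0.08 (adjusted p = 0.623) and 0.22 (adjusted p = 0.166), beside 0.96 and 0.81 for igf2r, and the difference between the receptors was not tested. The genes of the enzymes that add and uncover the tag, likewise chosen after their values were seen, had log2 fold changes in Select and Commercial of -0.24 and -0.26 for gnptab, 0.43 and 0.33 for gnptg, and -0.33 and -0.37 for nagpa, with adjusted p from 0.0588 to 0.227.

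The transcription factors listed as regulators of lysosomal genes (tfeb, tfec, tfe3 and mitf) matched no gene by symbol. The 7 genes that this list did match were flcn, lamtor3, lamtor4, lamtor5, rraga, rragd and mtor. Of these 7 genes of the nutrient-sensing complex mTORC1 and its control at the lysosome, 0 rose and 2 fell in Select. In Commercial 1 rose and 1 fell. That was 28.6% of the list in each strain, beside 34.3% of all features in Select and 30.1% in Commercial. Without the 3 libraries that stood apart 4 fell in Select. The kinase gene mtor fell in both, by 0.43 in Select (adjusted p = 0.00655) and 0.69 in Commercial (adjusted p = 0.000193), with 62.2 ± 7.23 CPM at 65 dph against 84.1 ± 9.8 CPM at 20 dph in Select. The others, named after their values were seen, were lamtor4, at -0.31 in Select (adjusted p = 0.0084), and rragd, at 0.98 in Commercial (adjusted p = 0.0232). Of 5 subunits of the proton pump, atp6v1f fell by 0.67 in Select (adjusted p = 0.0242) and atp6v0b rose by 0.53 in Commercial (adjusted p = 0.0343), both named after their values were seen; without the 3 libraries that stood apart the 1 that fell in Select was atp6v0cb (-0.36, adjusted p = 0.0385), and atp6v1f had -0.65 (adjusted p = 0.0556). With all libraries 20.0% of the pump subunits were called in each strain, beside the same 34.3% and 30.1% of all features. Of 2 tested genes of protein uptake by endocytosis, edgeR called 0 with age in either strain, and 1 in each without the 3 libraries that stood apart. The gene of the uptake receptor cubilin, cubn, had log2 fold changes of 0.77 in Select (adjusted p = 0.0511) and 0.76 in Commercial (adjusted p = 0.0578), and DESeq2 called it in both. Without the 3 libraries edgeR called it too, at 0.73 in Select (adjusted p = 0.0496) and 0.91 in Commercial (adjusted p = 0.0124). The megalin gene lrp2b had -0.33 (adjusted p = 0.621) and 0.07 (adjusted p = 0.93). A list of cathepsin inhibitors matched 0 genes by symbol.

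Between strains, edgeR and DESeq2 each called 0 of the 62 other lysosomal genes at 20 dph, at 65 dph, in the average and in the difference of age effects. The counts with an unadjusted p under 0.05 (edgeR) were 6 at 20 dph, 1 at 65 dph, 6 in the average and 2 in the difference. Of all 32166 tested features 3316, 2000, 3549 and 1781 reached it in the same order, so nothing is read from the counts among the 62. At 20 dph, 48 of the 62 had a positive and 14 a negative log2 fold change, Select over Commercial, with a median of 0.16, beside -0.00478 over all tested features. The median was 0.28 without the 3 libraries that stood apart. At 65 dph the median was -0.03. The genes share libraries, so nothing is read from the count of signs. At 20 dph their summed level was 7957 and 8032 CPM in Commercial replicates 1 and 4, against 11608 to 14186 CPM in the other Commercial libraries. In Select it was 7906 CPM in replicate 1, against 11703 to 15374 CPM in the others.

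**Figure D5:**
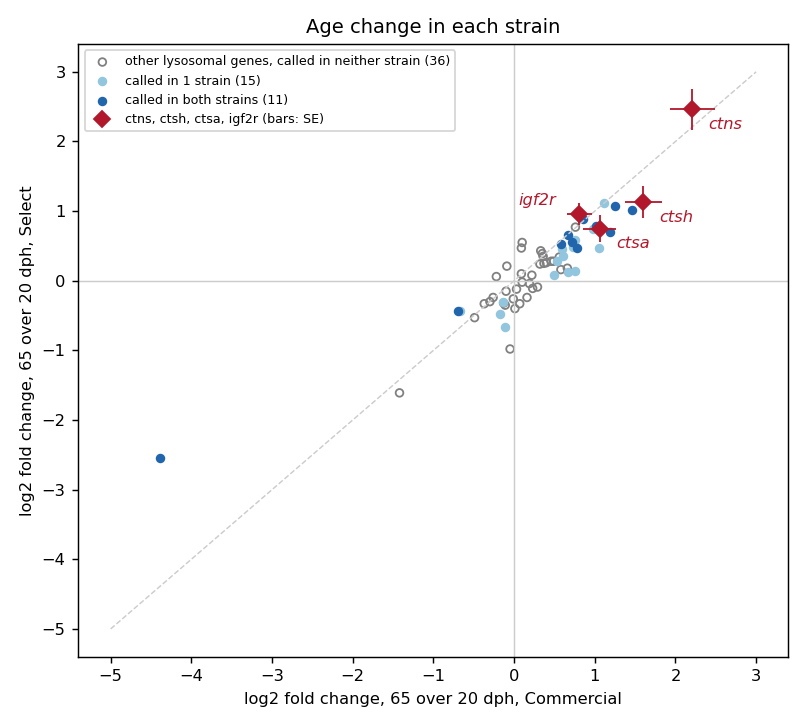
Log2 fold change, 65 over 20 dph, in Select (vertical axis) against Commercial (horizontal axis) for ctns, ctsh, ctsa and igf2r (diamonds, bars show SE) and for 62 other tested lysosomal genes, with the line of equal change. The 4 genes lie at the upper right by choice; 11 other genes were called in both strains, 15 in 1 and 36 in neither, and pla2g15 is the point at the lower left.

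The genes most like each of the 4 were ranked by the root mean square difference of log2 CPM profiles over the 20 libraries, each centred on its own mean, among 5297 tested genes with a symbol. For ctsa they were plbd1 (0.173), the β-galactosidase gene glb1 (0.178) and tpp1 (0.185), against a median of 0.76 over all genes compared. For ctsh they were gm2a (0.246), ctsa (0.263) and cd63 (0.283), against a median of 0.95. These neighbours of the enzyme genes were all members of the lysosomal lists or of the 4 genes themselves, which together are 68 genes.

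The neighbours of the other genes came from outside the lists. For igf2r they were efr3a (0.153), which encodes a plasma membrane scaffold of a lipid kinase, the kinase gene slkb (0.175) and the transcription factor gene elf1 (0.181), against a median of 0.71. For ctns they were the chromatin regulator gene asxl2 (0.396), the transport ATPase gene atp13a3 (0.404) and prf1 (0.434), the perforin gene of cytotoxic lymphocytes, against a median of 1.37. The profiles share libraries and the large difference between ages, so the ranking describes these samples and carries no test. For prf1 the log2 fold change with age was 2.55 in Select and 1.96 in Commercial. Its levels were low, with means of 4.54 CPM at 65 dph and 0.766 CPM at 20 dph in Select. In Commercial they were 4.15 and 1.06 CPM, so counting error and the prior count weigh on its profile.

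Markers of several cell types, enterocytes among them, were also called with age, beside 34.3% of all features in Select and 30.1% in Commercial. The lists hold few genes, and no list was tested as a set. Of 6 matched macrophage markers 4 rose in each strain (mpeg1.1, cd74b and havcr1 in both, ncf1 in Select and irf8 in Commercial), with median log2 fold changes of 0.94 in Select and 0.9 in Commercial, and their summed level was 187 to 238 CPM at 65 dph against 109 to 176 CPM at 20 dph in Select. In Commercial the macrophage sum was 195 to 256 CPM at 65 dph against 126 to 146 CPM at 20 dph. The macrophage marker lgals9 was called in neither strain, at -0.11 in Select and -0.2 in Commercial. Its mean at 20 dph was 74.9 CPM in Select and 87.9 CPM in Commercial, a large part of the sum. The mean of cd74b was 82.2 CPM at 65 dph against 29.8 CPM at 20 dph in Select, and 93.0 against 20.3 CPM in Commercial. All 4 matched T cell markers (cd3e, cd8a, il7r and tcf7) rose in each strain, with medians of 1.99 and 2.56. Their summed level was 45.6 to 75.0 CPM at 65 dph against 11.1 to 18.2 CPM at 20 dph in Select, and 48.1 to 66.3 CPM against 8.34 to 9.38 CPM in Commercial. Without the 3 libraries that stood apart, irf8 was called in place of havcr1 in Select. Of 4 B cell markers 3 rose in each strain, or 2 in Select without the 3 libraries. Of 4 endothelium and erythrocyte markers the globin genes hba1 and hbb1 rose in each strain. The others there, kdr (log2 fold change 0.23 in Select and -0.43 in Commercial) and alas2 (-0.19 and -0.41), were called in neither. Of 3 fibroblast markers 2 rose in Select (col1a1b and pdgfra) and 0 in Commercial, and of 4 liver markers 3 fell in Select, or 1 without the libraries that stood apart. Of 7 tested enterocyte markers 0 rose and 2 fell in Select (fabp2 and slc15a1a), or 3 fell, with vil1 added, without the 3 libraries. In Commercial 2 rose (anpepa and cdx1b) and 3 fell (fabp2, slc15a1a and vil1). No marker of the macrophage, T cell, B cell, liver or endothelium lists was without counts in any group. The part of any of these cell types in the levels of ctns, ctsh, ctsa and igf2r was not tested.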

How the data were processed

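Per the submitters' processing notes, Salmon 1.2.1 assigned reads to transcripts. Per the file headers, each deposited table holds for 78931 transcripts an expected count (34.3% were not whole), a TPM and an effective length; no source used here names the transcript release or the genome build, so no coordinates are printed. Libraries were poly(A)-selected and stranded, per the labels' protocols. Expected counts were summed per gene through the RefSeq gene table of USDA_OmykA_1.1 (42376 transcripts matched without version, 25115 genes, 6926 with a symbol; matched transcripts held 66.5% of reads; 36555 unmatched transcripts stayed single features) and rounded.

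All 20 libraries entered 1 fit of 4 group means in edgeR 4.0.16 (R 4.3.3; TMM scaling, filterByExpr, robust quasi-likelihood F-test, Benjamini-Hochberg over 32166 features, threshold 0.05); the deposited TPM served only to compare genes per length. CPM are TMM-scaled and log2 CPM used a prior count of 2. The code was tested on simulated data. The reads carried no molecular identifiers, so depth covers counting error only. Alternatives were RLE factors, other filters, length-scaled counts, a replicate block, DESeq2 1.42.0, and leaving out single libraries or those that stood apart.

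Members, gene lists and tests were chosen with earlier results of these data known. Beside the members, up to 4 genes a list called with the same sign in both age contrasts and the 3 nearest profiles per member are named; other genes are named as chosen after their values were seen. Of 8 marker lists, the exocrine pancreas list matched 0 genes. The lysosomal lists matched in part: 19 protease symbols gave 7 genes and 45 hydrolase symbols gave 20. Lysosomal genes without a matching symbol are absent from the counts and ranks. Same-numbered libraries did not deviate together (correlations -0.09 to 0.081), so replicate numbers pair nothing. Each member had 1 transcript, so transcript shares were not tested.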

Additional observations from a re-analysis of the deposited data

Results flagged for a closer look

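In Select at 65 dph, ctsa measured 544 CPM in replicate 5 and 892 to 958 CPM in the other 4 libraries. The gap between this library and its nearest neighbour was 0.841 of the whole range of the group, above Dixon's 95% critical value of 0.71 for 5 samples. It was 1 of 16 sets of a gene and a group that were examined, and chance alone marks about 1 in 20. The same library held the lowest ctns, ctsh and igf2r values of its group and the highest sum of fibroblast markers there (2157 CPM). What sets this library apart was not tested. Without it the log2 fold change of ctsa with age in Select was 0.87, against 0.75 with all libraries, and the range over all alternatives was 0.61 to 0.87.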

How the results depend on the processing

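The number of the 4 genes called was the same under every alternative run. It was 4 with age in each strain, and 0 between strains, in the average and in the difference of age effects. The main fit called 16.4% of all features higher with age in Select and 14.5% in Commercial. The genes were chosen on the age contrasts, so nothing is read from their age count staying the same. Of 512 recomputed gene values 503 kept their sign; the 9 others were uncalled strain values near 0. For ctns at 65 dph these were -0.01 with length-scaled counts, -0.01 without the 2 libraries that stood apart and -0.01 without those and Select 20 dph replicate 1, and leaving out 1 library gave -0.16 to 0.08. For ctsh at 65 dph leaving out 1 library gave -0.04 to 0.14, and for igf2r at 20 dph -0.05 to 0.2. Counts over all features moved more. At 20 dph, 51 features were called between strains, 31 without a filter on low counts, 20 with the replicate block and 442 by DESeq2, with 5 (without Commercial 20 dph replicate 2) to 46 when 1 library was left out. At 65 dph the count was 0, then 53 without the 2 libraries that stood apart, 71 without those and Select 20 dph replicate 1, 121 by DESeq2 and 0 to 125 (without Commercial 65 dph replicate 2) with 1 library left out. In the average it was 136, then 52 with the replicate block, 479 and 505 without the 2 and the 3 libraries, 723 by DESeq2 and 34 (without Select 65 dph replicate 3) to 580 (without Commercial 65 dph replicate 2) with 1 left out. In the difference of age effects it was 0, then 2 and 1 without the 2 and the 3 libraries, 66 by DESeq2 and 0 to 2 with 1 left out. With the replicate block the age counts were 10536 in Select and 9291 in Commercial, and the numbers pair nothing by the labels or the data. The cause of these shifts was not tested. The alternative without 3 libraries was chosen after seeing the data. A search for related gene copies was not run. Depth limits ctns most, with 24 to 101 expected counts per library at 20 dph.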
